A study of Homo sapiens with 6 samples.

Results

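The mitochondrial ribosomal protein genes were taken as the protein-coding genes of the deposited count table whose symbol begins with MRPL or MRPS. There were 78 of them among 58735 genes, 49 with an MRPL symbol and 29 with an MRPS symbol, spread over 21 chromosomes. All 78 passed the filter on low counts. The cells were MDA-MB-231, an established line of triple-negative breast cancer with mesenchymal features. For 3 libraries, cells received a DNAJC12 vector by transfection and carried the genotype label DNAJC12 overexpression. DNAJC12 is a J-domain cochaperone of the HSP70 chaperones. The other 3 libraries came from cells given the empty vector. The sources used here do not give the time after transfection, or whether cells were selected or cloned. No label ties the libraries to separate cultures, so the p-values measure only the spread between these libraries, which may be technical.

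The mitochondrial ribosome translates the few mRNAs encoded by mitochondrial DNA, which specify core subunits of the respiratory chain and of ATP synthase. Its RNAs are encoded in the mitochondrion, whereas its proteins are encoded in the nucleus, made on cytosolic ribosomes and imported. Part of these proteins descend from the bacterial ribosome, and the others are specific to mitochondria. The proteins of the large subunit surround the peptidyl transferase centre and the exit tunnel, and those of the small subunit surround the mRNA channel and the decoding site.

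The libraries held 17967283 to 18887497 counts. DNAJC12 had 522, 523 and 492 counts in libraries 1, 2 and 3 with its vector, and 1, 0 and 0 counts with the empty vector, in the direction of the labels. Of the markers of the line, VIM, CD44, EGFR and KRT18 lay between 69.6 and 1149 CPM (counts scaled to library size by the trimmed mean of M-values) in all libraries, while SPARC lay between 0.902 and 2.72 CPM. ESR1 and PGR stayed under 0.160 CPM, but ERBB2 reached 61.4 to 121 CPM. Of the leukocyte markers reported, CD3E was at 0 in all libraries and PTPRC at 0 in 4 of 6, while CD14 had 4.86 to 12.6 CPM. Of the endothelial markers, CDH5 and VWF reached at most 0.223 CPM, and PECAM1 had 3.81 to 5.51 CPM with DNAJC12 and 15.1 to 22.7 CPM with the empty vector. Of the fibroblast markers, DCN reached at most 0.107 CPM, COL1A1 had 4.597 to 10.01 CPM and COL1A2 0.698 to 2.59 CPM, and PDGFRB had 46.1 to 72.5 CPM with DNAJC12 and 25.4 to 27.3 CPM with the empty vector. PECAM1 and PDGFRB thus did not overlap between the groups. Of the markers of the line, EGFR did not overlap either, at 88.6 to 174 CPM with DNAJC12 and 69.6 to 78.7 CPM with the empty vector. Nor did SPARC, at 0.902 to 1.41 CPM with DNAJC12 and 2.06 to 2.72 CPM with the empty vector. Among all tested genes, 9.26% did not overlap with DNAJC12 higher and 10.8% with DNAJC12 lower. The part of these markers in the results was not tested. By the mean GC content of their counts, the libraries formed a graded series without a clear break. The libraries numbered 2 lay at its upper end, at 54.3% with DNAJC12 and 53.7% with the empty vector. Libraries 3 followed at 53.3% with the empty vector and 52.8% with DNAJC12. Libraries 1 were lowest, at 52.4% with the empty vector and 51.9% with DNAJC12.

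The genes differed far more from each other than between the groups. On the scale of FPKM, a level scaled to gene length and depth, the median of the 78 means over 6 libraries was 23.3. 42 genes lay between 10 and 60 FPKM, 24 below and 12 above. MRPL14, whose protein sits at the face where the subunits join and binds the assembly factor MALSU1, had the highest level, at 262 ± 78.9 FPKM with DNAJC12 and 261 ± 42.3 FPKM with the empty vector (SD, n = 3 each). MRPS34, a mitochondria-specific protein of the small subunit, followed at 101 ± 42.8 and 122 ± 33.5 FPKM (SD, n = 3 each). MRPL41 had 111 ± 39.4 and 109 ± 23.6 FPKM, and MRPS10 had 98.7 ± 30.0 and 83.3 ± 23.0 FPKM (SD, n = 3 each). With DNAJC12 the means of these last 3 genes lay within 1 SD of each other, whereas with the empty vector MRPS10 lay below both others by more than 1 SD. At the other end, MRPS24 had a mean of 2.04 FPKM, MRPL53 1.42, MRPL46 1.38 and MRPL38 0.507 over the 6 libraries. The ratio of the highest to the lowest mean was 516.

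**Figure D1:**
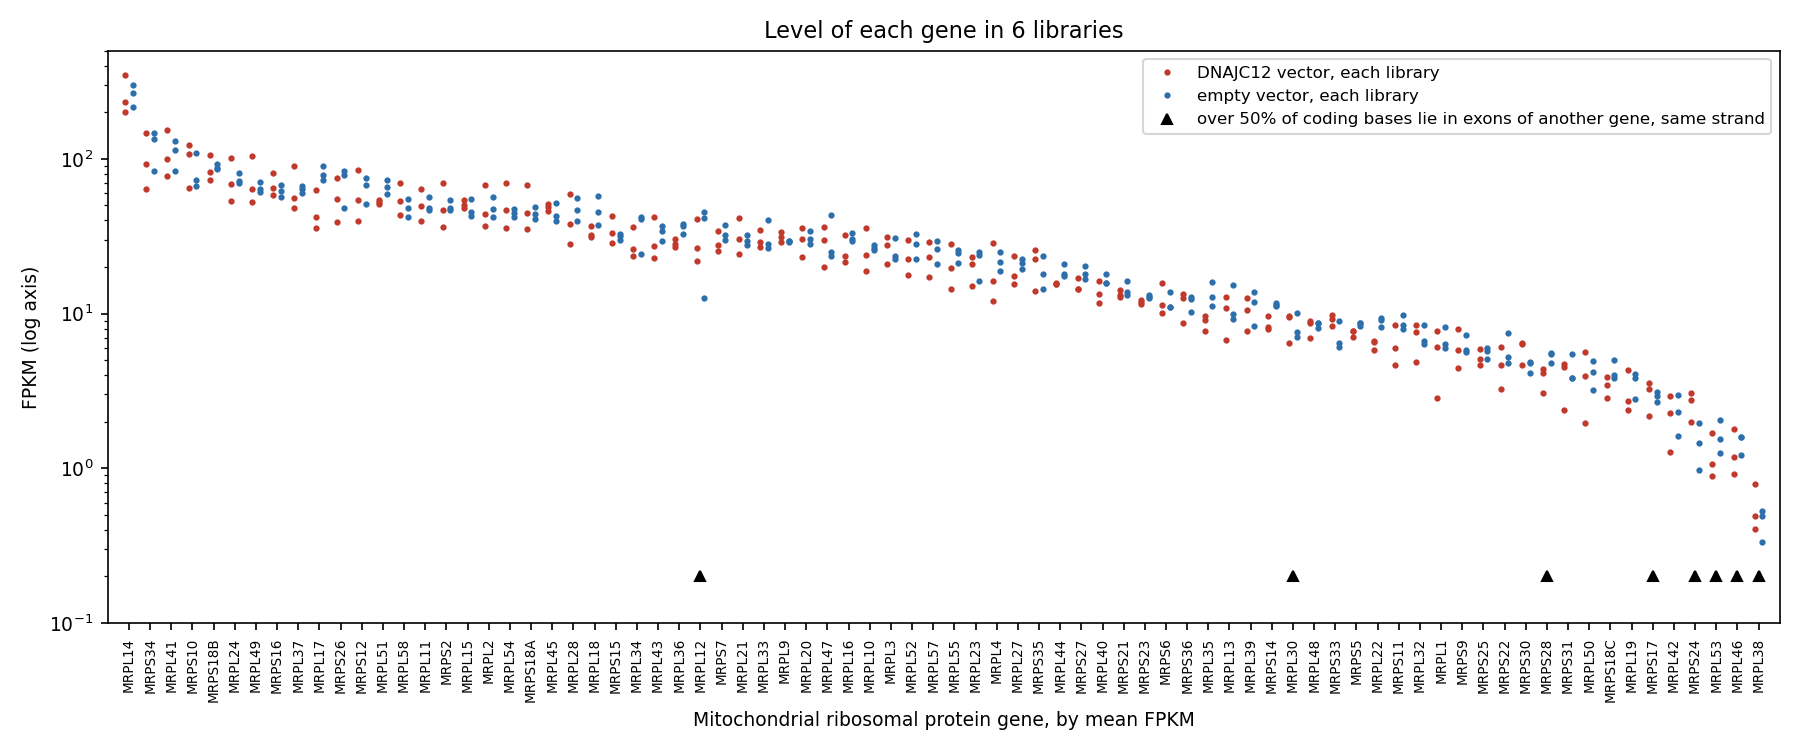
FPKM of the 78 genes (log axis) in each library, ordered by the mean over 6 libraries; red points are libraries with the DNAJC12 vector, blue points those with the empty vector, and black triangles mark the 8 genes with over 50% of their coding bases inside exons of another gene on the same strand. Levels run from 0.507 for MRPL38 to 262 for MRPL14 while the red and blue points of most genes overlap, and 5 of the 6 lowest genes carry a triangle.

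The low end coincided with gene models that overlap. In 8 genes, MRPL53, MRPS17, MRPL12, MRPL30, MRPL38, MRPS24, MRPL46 and MRPS28, over 50% of the coding bases lay in exons that the annotation also assigns to another gene on the same strand. Their median was 2.49 FPKM, against 26.3 FPKM in the other 70 genes. The coding bases of MRPS24 were shared to 92.2%, with the readthrough gene URGCP-MRPS24, which had 3 counts over all libraries, while MRPS24 had 586. In MRPL38 the shared part was 94.1%, and its partner AC087289.3 had 2 counts against 203. No source used here says how reads in shared exons were assigned, so the levels of these 8 genes are uncertain. In all, 41 of the 78 genes shared exon bases with some gene, 29 of them with a gene on the opposite strand, from which reads cannot be told apart without the strand setting. Pseudogenes named after the family took 948 counts over all libraries, which was 0.164% of the counts of the 78 genes. These counts were not evenly spread. MRPL45P2 took 844 of them, at 120 to 155 per library, where MRPL45 had 1222 to 1706. MRPS31P4 and MRPS31P5 had 3 to 16 and 0 to 17 per library, where MRPS31 had 80 to 218. Whether reads were misassigned between these genes and pseudogenes was not tested.

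No gene of the family was called between the groups at an adjusted p of 0.05 in edgeR's quasi-likelihood test with Benjamini-Hochberg adjustment over 14520 genes. The called counts were 0 higher and 0 lower of 78, where 0.585% of all tested genes were called higher and 0.661% lower. At an unadjusted p of 0.05, 1 gene was higher (MRPS24) and 3 were lower (MRPL17, MRPL35 and MRPL22), against 7.25% and 6.86% of all tested genes. DESeq2's Wald test and limma on FPKM also called 0. The smallest adjusted p in the family, that of MRPL17, was 0.182 by edgeR. In bulk RNA, a change in RNA per cell and a change in the share of cells that hold it cannot be told apart.

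The fold changes were small and mostly below 0. The median log2 fold change of DNAJC12 against empty vector was -0.10 over the 78 genes and 0.05 over all tested genes. It was below 0 in 51 of the 78 (65.4%), against 45.1% of all tested genes. This lean depended on single libraries. Without library 1 with DNAJC12, 43 of the 78 were below 0 and the family's median was -0.03. Without library 2 with DNAJC12, 54 were below 0 and the median was -0.18. The median size of the change, sign aside, was 0.15 in the family and 0.29 in all tested genes, and 3 genes passed 0.5. In 69 of 78 genes (88.5%) the 95% interval of the fold change lay inside a 2-fold change either way, which was so for 50.1% of all tested genes. For each of those 69 genes taken alone, a difference of 2-fold lay outside the interval, given the spread between these libraries in edgeR's fit. Other settings, described below, changed some calls. The 95% level does not hold for the 69 jointly. The SE of each gene was derived from its fold change and the F statistic of edgeR's test. The 9 genes with wider limits were MRPL1, MRPL12, MRPL17, MRPL35, MRPL38, MRPL53, MRPS11, MRPS24 and MRPS28.

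**Figure D2:**
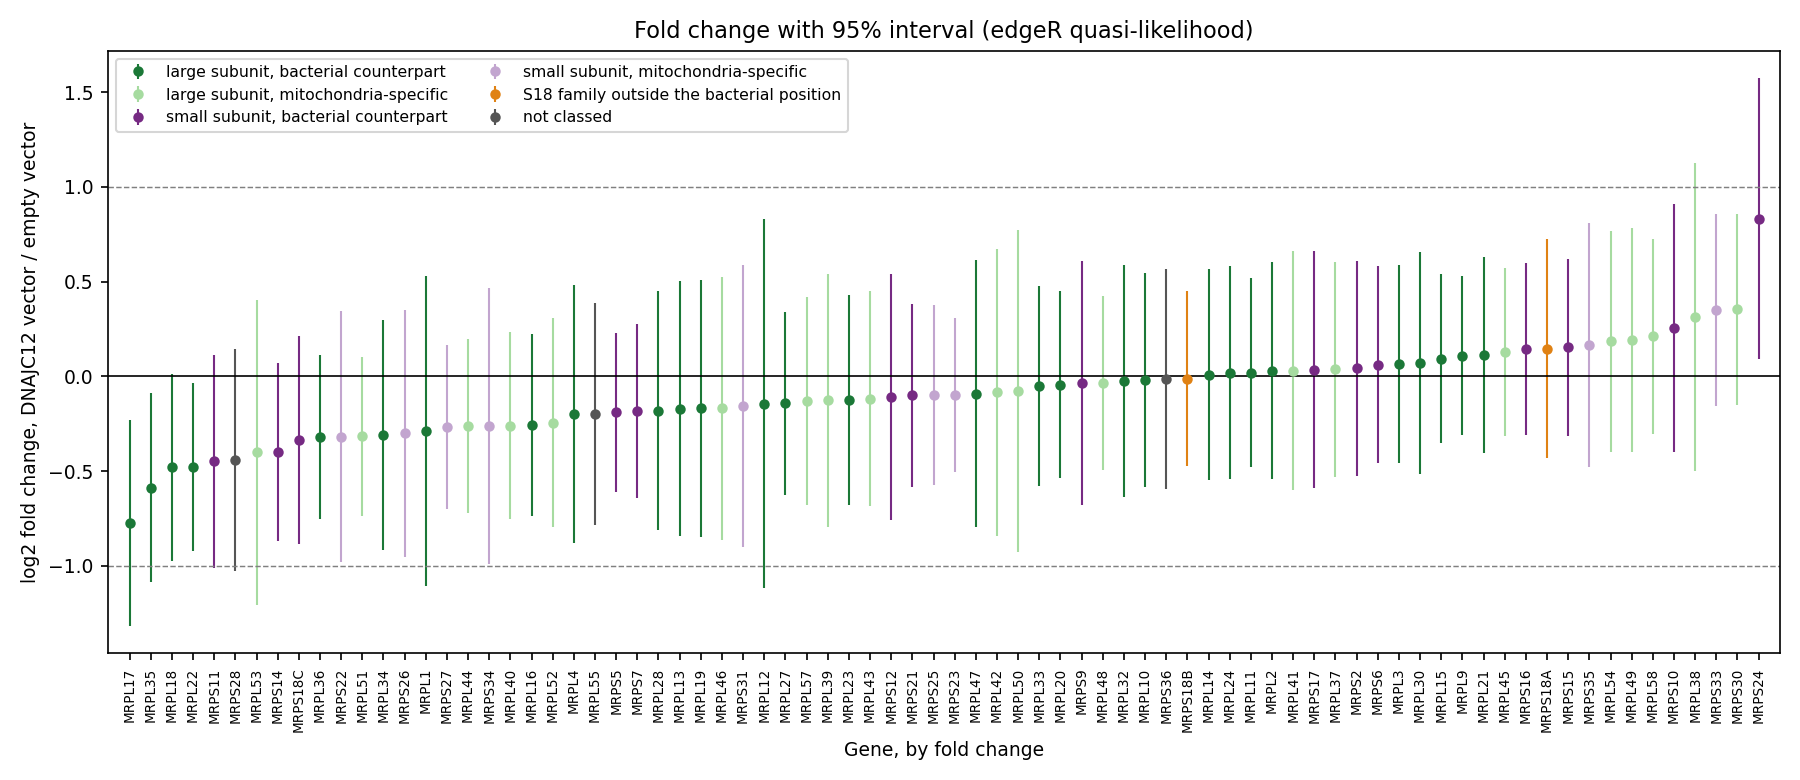
Log2 fold change (DNAJC12 over empty vector) of each of the 78 genes with its 95% interval from edgeR, ordered by fold change and coloured by role; dashed lines mark a 2-fold change. MRPL17 at -0.77 and MRPS24 at 0.83 stand at the ends, and 69 of 78 intervals stay between the dashed lines.

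Among the 29 large-subunit genes with a bacterial counterpart, the median log2 fold change was -0.12, with 20 below 0. The lowest of all was MRPL17 (ENSG00000158042, GRCh38 chromosome 11, 6680782 to 6683401, minus strand), which encodes a protein beside the exit tunnel. MRPL17 had 82.8, 143 and 97.4 CPM in libraries 1, 2 and 3 with DNAJC12, and 168, 204 and 181 CPM with the empty vector. All 3 DNAJC12 libraries lay below the lowest empty-vector library, and library 2 was the highest of both groups. The log2 fold change was -0.77 ± 0.24 (SE, n = 3 each), with an adjusted p of 0.182 in edgeR's test. The MRPL17 window is printed because this gene had the largest decrease and carries the letters of the nuclear respiratory factor NRF1, a transcription factor of many nuclear genes for mitochondrial proteins. The stretch holds no annotated exon (RefSeq, GRCh38.p14, minus strand, chr11:6683402-6683590), and capitals mark the letters GCGCANGCG, found overlapping on both strands.
MRPL17: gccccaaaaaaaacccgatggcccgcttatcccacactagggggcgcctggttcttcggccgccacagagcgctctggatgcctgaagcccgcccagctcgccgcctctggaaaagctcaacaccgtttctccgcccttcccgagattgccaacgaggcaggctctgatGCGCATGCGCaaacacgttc

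MRPL35 (GRCh38 chromosome 2, 86199355 to 86213794, plus strand) encodes another large-subunit protein of bacterial type. MRPL35 had 37.4, 29.8 and 35.5 CPM with DNAJC12 and 62.2, 42.7 and 49.5 CPM with the empty vector. The groups did not overlap, and library 2 was the lowest of each group, the opposite of its place for MRPL17. Its log2 fold change was -0.59 ± 0.22 (SE, n = 3 each; edgeR adjusted p = 0.276). MRPL22, whose protein lines the exit tunnel, had 31.2, 34.8 and 35.5 CPM with DNAJC12 and 50.2, 47.8 and 43.4 CPM with the empty vector, again without overlap. Its log2 fold change was -0.48 ± 0.20 (SE, n = 3 each; edgeR adjusted p = 0.321). MRPL18, a protein of the central protuberance, had 43.6, 50.6 and 44.7 CPM against 52.0, 79.4 and 62.3 CPM. The highest DNAJC12 library of MRPL18 lay just under the lowest empty-vector library, at a log2 fold change of -0.48 ± 0.22 (SE, n = 3 each; edgeR adjusted p = 0.370). MRPL22 also held the NRF1 letters, in an exon-free stretch that is shown beside that of MRPL17 for comparison (RefSeq, GRCh38.p14, plus strand, chr5:154940823-154941069), with those letters in capitals.
MRPL22: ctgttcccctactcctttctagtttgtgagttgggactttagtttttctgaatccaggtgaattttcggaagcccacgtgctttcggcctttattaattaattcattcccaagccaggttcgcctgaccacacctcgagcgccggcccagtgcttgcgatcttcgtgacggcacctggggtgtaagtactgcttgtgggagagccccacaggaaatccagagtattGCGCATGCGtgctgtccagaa

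The stalk that recruits translation factors is built from MRPL10, MRPL11 and MRPL12. MRPL10 had a log2 fold change of -0.02 ± 0.25 and MRPL11 of 0.02 ± 0.22 (SE, n = 3 each), and the sign of each flipped in some of the alternative analyses. MRPL12 had 22.8, 42.4 and 27.6 CPM with DNAJC12 and 13.2, 46.8 and 42.6 CPM with the empty vector. Library 1 of the empty vector was the lowest of all 6, and the groups overlapped. MRPL12 had the largest standard error in the family, with a log2 fold change of -0.14 ± 0.44 (SE, n = 3 each), and is 1 of the 8 genes with shared coding bases. MRPL14, the gene with the highest level, had a log2 fold change of 0.01 ± 0.25 (SE, n = 3 each), a sign that flipped in some of the alternatives.

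**Figure D3:**
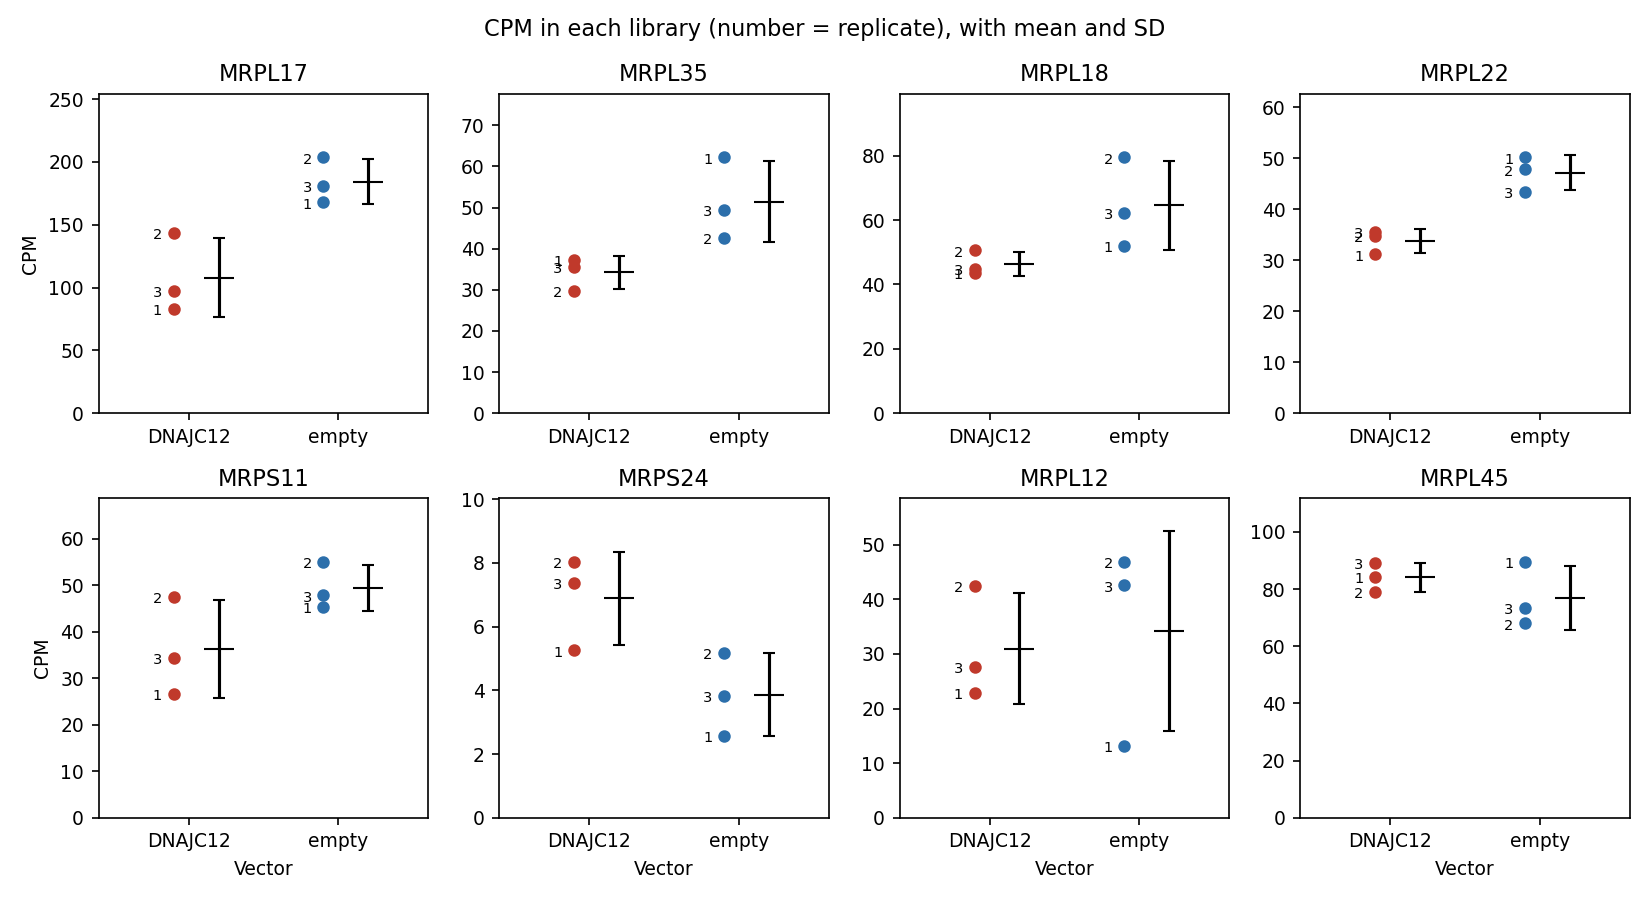
CPM of 8 genes in each library (numbered points), with the mean and SD of each group (n = 3) beside the points. The groups do not overlap for MRPL17, MRPL35, MRPL18, MRPL22 and MRPS24, while they overlap for MRPS11, MRPL12 and MRPL45.

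The 20 mitochondria-specific genes of the large subunit had a median log2 fold change of -0.08, with 12 below 0. MRPL45, which anchors the ribosome to the inner membrane, had 84.4, 78.9 and 89.1 CPM with DNAJC12 and 89.4, 68.0 and 73.3 CPM with the empty vector. The groups of MRPL45 overlapped, at a log2 fold change of 0.13 ± 0.20 (SE, n = 3 each). The counts of its pseudogene MRPL45P2 are given above. MRPL58, a peptidyl-tRNA hydrolase that can release stalled chains, was at 0.21 ± 0.23, and MRPS30, a large-subunit protein despite its symbol, was at 0.35 ± 0.22 (log2 fold change, SE, n = 3 each). MRPL38 and MRPL53, both with shared coding bases, were at 0.31 ± 0.36 and -0.40 ± 0.36 (log2 fold change, SE, n = 3 each).

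The 15 small-subunit genes with a bacterial counterpart had a median log2 fold change of -0.03, with 8 below 0. MRPS24 (ENSG00000062582, chromosome 7, 43866558 to 43869893, minus strand), the counterpart of a protein at the mRNA entry, had the largest increase of the 78. MRPS24 had 5.26, 8.03 and 7.37 CPM with DNAJC12 and 2.58, 5.17 and 3.84 CPM with the empty vector. The lowest DNAJC12 library lay only just above the highest empty-vector library, and counts ran from 48 to 141 per library. The log2 fold change of MRPS24 was 0.83 ± 0.33 (SE, n = 3 each; edgeR adjusted p = 0.302), and it is 1 of the genes with shared coding bases. MRPS11, a protein of the platform, had 26.7, 47.5 and 34.4 CPM against 45.3, 55.0 and 47.8 CPM. Only library 2 with DNAJC12 reached into the range of the empty vector, and the log2 fold change was -0.45 ± 0.25 (SE, n = 3 each; edgeR adjusted p = 0.468). MRPS14 had 21.7, 25.0 and 20.8 CPM with DNAJC12 and 29.6, 30.2 and 29.4 CPM with the empty vector, groups that did not overlap, at a log2 fold change of -0.40 ± 0.21 (SE, n = 3 each; edgeR adjusted p = 0.439).

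The 9 mitochondria-specific genes of the small subunit had a median log2 fold change of -0.16, with 7 below 0, and MRPS33 was the highest of them at 0.35 ± 0.23 (SE, n = 3 each). The bacterial protein S18 has 3 human relatives. MRPS18C, which holds the bacterial position, had a log2 fold change of -0.34 ± 0.25, MRPS18A was at 0.14 ± 0.26 and MRPS18B at -0.01 ± 0.21 (SE, n = 3 each). MRPS18B had the highest level of the 3, at a mean of 87.9 FPKM, and MRPS18C the lowest, at 3.85 FPKM. MRPS36, which is also known as a subunit of the 2-oxoglutarate dehydrogenase complex, was at -0.01 ± 0.26, and MRPS28 at -0.44 ± 0.26 (log2 fold change, SE, n = 3 each). Over the whole family, the groups did not overlap with DNAJC12 higher in 1 gene (MRPS24) and with DNAJC12 lower in 11, against 9.26% and 10.8% of all tested genes.

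Within each group, the family split by GC content. In library 2 with DNAJC12, the 26 genes with the lowest GC content lay at a median of -0.44 from each gene's mean over the 6 libraries on the log2 CPM scale, and the 26 with the highest GC content lay at 0.46. In library 1 with DNAJC12 the order was turned, at 0.27 and -0.39. The empty-vector libraries showed the same turn, with 0.32 and -0.13 in library 1 and -0.16 and 0.22 in library 2. Pearson's r between GC content and deviation across the 78 genes was -0.74, 0.80 and -0.36 in the DNAJC12 libraries and -0.77, 0.67 and 0.29 in the empty-vector libraries, as a description over genes that share a library. Between the groups, r of the log2 fold change with GC content was 0.06 across the 78 genes, and 0.32 after the GC correction described next. Before that correction the groups of 26 genes of lowest and highest GC content had medians of -0.09 and -0.08. The summed level of the family was 4436, 6084 and 4958 CPM with DNAJC12 and 5208, 5682 and 5308 CPM with the empty vector, so library 2 with DNAJC12 was the highest and library 1 with DNAJC12 the lowest of all.

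**Figure D4:**
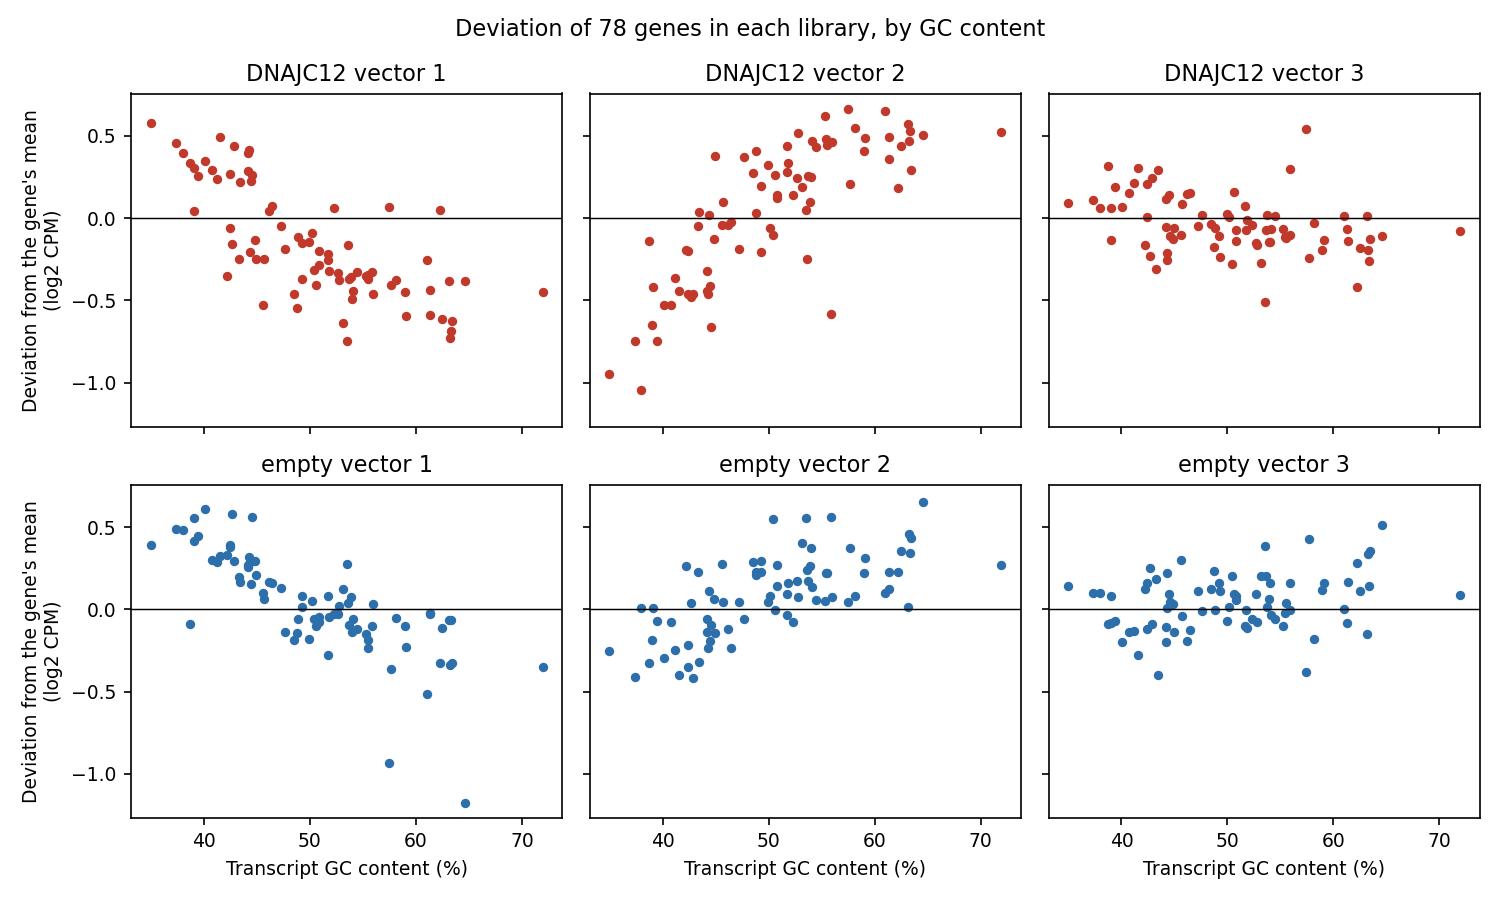
Deviation of each of the 78 genes from its own mean over the 6 libraries (log2 CPM) against the GC content of its transcripts (%), in 1 panel per library. The points fall with GC content in both libraries numbered 1 (r of -0.74 and -0.77) and climb in both libraries numbered 2 (r of 0.80 and 0.67).

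Calls in the family changed when library 2 with DNAJC12 was left out or GC content was corrected for. The cause of this change was not tested. Without library 2 of the DNAJC12 group, edgeR called 0 genes higher and 6 lower (MRPL16, MRPL17, MRPL18, MRPL22, MRPL4 and MRPS11), where 12.1% of all tested genes were called higher and 10.4% lower. With a GC trend removed from each library, it called 1 higher (MRPS24) and 4 lower (MRPL1, MRPL17, MRPL35 and MRPS22), where 9.39% of all tested genes were called higher and 8.44% lower. All 17 alternatives reuse the same libraries or a part of them, so a kept direction is not independent support. MRPL17 kept its direction in all 17 alternatives, between -1.03 and -0.62 on the log2 scale, and was called in 6 of them. MRPL35 and MRPS24 kept theirs in all 17 and were each called in 4. Of the 77 genes tested in all 17 alternatives, 37 kept 1 direction throughout, 28 of them below 0 and 9 above. MRPL38 was tested in 15 alternatives and kept its direction in those.

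Genes that build or serve the mitochondrial ribosome were examined in 6 lists, all of whose 79 genes were tested, and 0 were called higher and 0 lower by edgeR, with the same background as above. DESeq2's Wald test called 1 (HSPA9, higher) and limma on FPKM called 0. In edgeR's test 9 of the 79 had an unadjusted p under 0.05, 5 of them higher and 4 lower. Among all tested genes, 7.25% were higher and 6.86% lower at that bound. Groups that did not overlap, as given below for single genes, occurred in 9.26% (DNAJC12 higher) and 10.8% (lower) of all tested genes. Of the 5 ribosomal proteins without an MRP symbol, GADD45GIP1 was at -0.62 ± 0.28 and PTCD3 at 0.12 ± 0.35 (log2 fold change, SE, n = 3 each). Among 29 genes of assembly and rRNA modification, 19 were below 0, and the methyltransferase gene MRM2 had 33.9, 36.8 and 32.9 CPM with DNAJC12 and 47.1, 47.6 and 47.7 CPM with the empty vector. The groups of MRM2 did not overlap, at a log2 fold change of -0.46 ± 0.19 (SE, n = 3 each; edgeR adjusted p = 0.328). NDUFAB1, the mitochondrial acyl carrier protein, was at -0.45 ± 0.20 (log2 fold change, SE, n = 3 each).

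Among 17 translation factors and mRNA carriers, the elongation factor gene TSFM was at -0.53 ± 0.23 and the ribosome recycling factor gene MRRF at 0.49 ± 0.21 (log2 fold change, SE, n = 3 each), without overlap between the groups for either. Of 8 genes of mitochondrial transcription or DNA replication, the RNA polymerase gene POLRMT was at -0.44 ± 0.28 and TFAM, which packages mitochondrial DNA, at 0.62 ± 0.42 (log2 fold change, SE, n = 3 each). Of 10 nuclear regulators, the coactivator gene PPARGC1B had 3.41, 3.67 and 2.77 CPM with DNAJC12 and 6.22, 5.84 and 6.39 CPM with the empty vector. The groups of PPARGC1B did not overlap, at a log2 fold change of -0.91 ± 0.27 (SE, n = 3 each; edgeR adjusted p = 0.153). MYC had 447, 441 and 471 CPM against 264, 319 and 326 CPM, also without overlap, at 0.58 ± 0.19 on the log2 scale (SE, n = 3 each; edgeR adjusted p = 0.192). Of 10 chaperones and proteases, HSPA9, the mitochondrial HSP70, had 477, 223 and 412 CPM against 220, 157 and 185 CPM. The lowest DNAJC12 library of HSPA9 lay just above the highest empty-vector library, at 0.99 ± 0.29 on the log2 scale (SE, n = 3 each; edgeR adjusted p = 0.157), and the protease gene LONP1 was at 0.57 ± 0.25 (SE, n = 3 each).

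Other families of ribosomal and mitochondrial genes are given side by side, with no test of a difference between families. The 84 cytosolic ribosomal protein genes had a median log2 fold change of 0.09, with 58 above 0, and the 77 nuclear genes of the respiratory chain had -0.11, with 58 below 0. The 13 mRNAs encoded in the mitochondrion had a median of -0.08. The mitochondrial rRNAs MT-RNR1 and MT-RNR2 were at -0.02 ± 0.23 and -0.41 ± 0.19 (log2 fold change, SE, n = 3 each). None of these genes was called by edgeR.

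Promoter windows from RefSeq (GRCh38.p14), from 250 bases before to 50 after a start, were found for 69 of the 78 genes, and 11 of the 69 had more than 1 window, so shares are given per gene and per window. Both strands were searched. The NRF1 letters GCGCANGCG stood in 14 of 69 genes (20.3%), against 16.9% of tested coding genes and 7.52% of all windows, and in 17.6% of the family's windows against 12.5% of those of tested coding genes. The letters CCGGAAGT of the ETS family, to which GABP belongs, stood in 12 genes (17.4%), against 10.1% and 4.14%, and per window in 16.5% against 7.40%. The median log2 fold change of those 12 was -0.25, with 10 below 0, and that of the genes without the letters was -0.08. In the whole family, 51 of 78 were below 0. The 12 include MRPL38 and MRPL53, whose levels are uncertain. For NRF1 the medians with and without the letters were -0.09 and -0.10, and for the E-box 0.04, with 6 of 9 above 0, and -0.10. Differences between genes with and without letters were not tested. The letters AAGATGGCG of YY1 stood in 13 genes (18.8%), against 4.71% and 1.75%, and per window in 15.3% of the family's against 3.40% of those of tested coding genes. The E-box CACGTG stood in 9 genes (13.0%), against 12.5% and 7.26%, and per window in 10.6% against 9.20%. The ATF4 composite letters TGATGNAAT stood in 1 gene (MRPL55), which was 1.45% against 0.678% and 0.991%, and per window 1.18% against 0.518%. Some of these letters can overlap each other in a window, and a match is only a match of letters.

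The YY1 letters lay mostly just after the start. In 10 of 69 genes (14.5%) they lay after the start on the gene's own strand, against 2.97% of tested coding genes, and in 9 of 69 (13.0%) the ATG inside them was an annotated start codon, against 2.13%. Sites of 5 of these 9 are printed to show the shared core at the start codon; capitals mark the YY1 letters (RefSeq, GRCh38.p14, gene strand).
MRPS24 (chr7:43869480-43869508): cgcttggcccAAGATGGCGgcctccgtgt
MRPS10 (chr6:42217834-42217862): cgggaccggcAAGATGGCGgcgcggacag
MRPS18B (chr6:30617853-30617881): ggcgtacgtcAAGATGGCGgcgtctgtat
MRPS30 (chr5:44808950-44808978): atcgcgggcaAAGATGGCGgcggccaggt
MRPL46 (chr15:88467362-88467390): gggagaacgaAAGATGGCGgcgcccgtaa
These genes had no direction in common: MRPS24, MRPS10 and MRPS30 had log2 fold changes of 0.83, 0.25 and 0.35, and MRPS18B and MRPL46 of -0.01 and -0.17, the signs of the last pair flipping in some alternatives. The median over the 13 genes with the letters was -0.02, and that of the genes without them was -0.11.

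**Figure D5:**
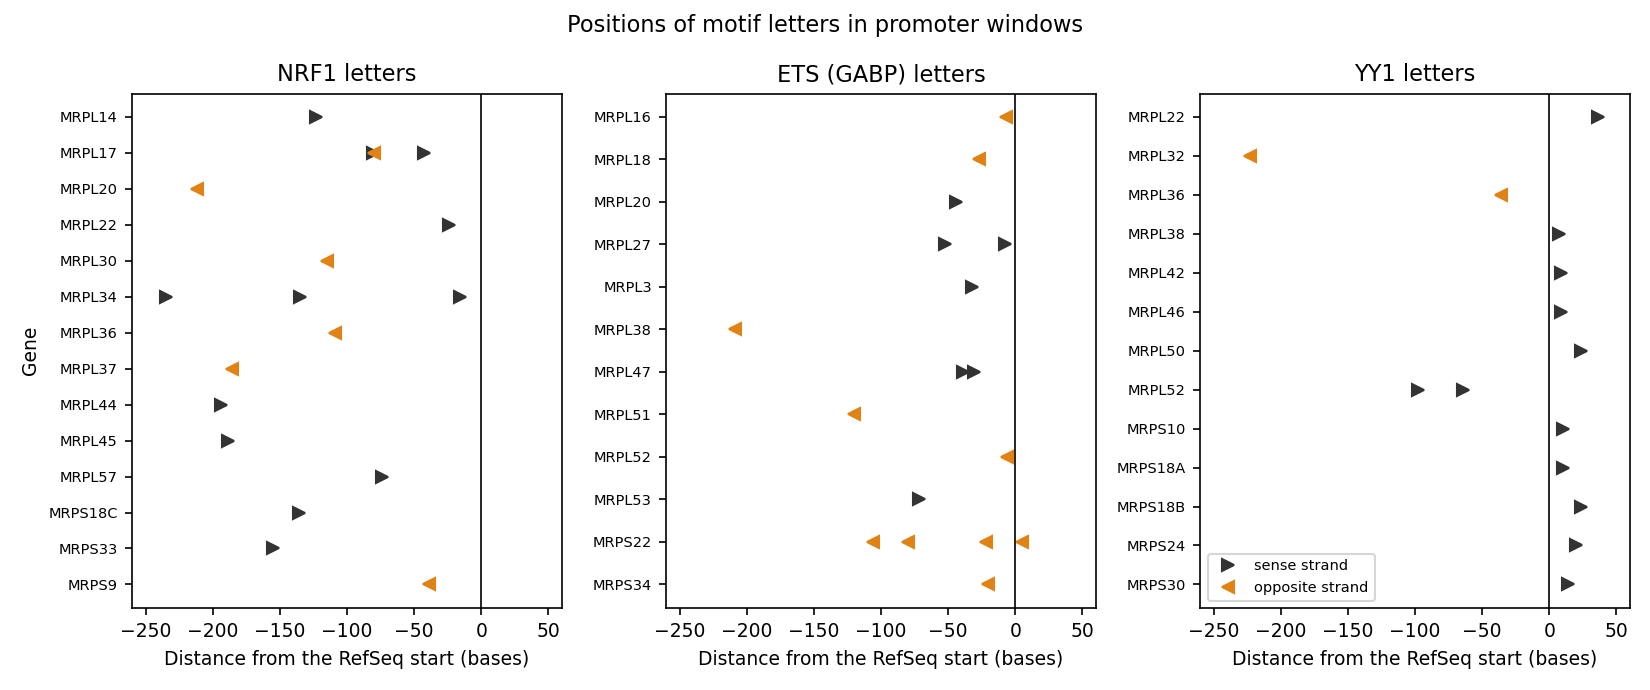
Positions of the NRF1, ETS and YY1 letters in the promoter windows of the genes that hold them, as distance in bases from the RefSeq start (vertical line); black marks are on the gene's strand and orange marks on the opposite strand, and a site that lies in several windows of a gene is drawn once for each. YY1 letters of 10 genes lie just after the start on the gene's strand, whereas the NRF1 and ETS letters lie mostly before it.

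Of the 78 genes, 29 had the start of a coding gene of the opposite strand within 1000 bases of their own start, and 15 within 100 bases. The other start could lie before or after the gene's own. The share of all coding genes with such a neighbour was not counted. MRPL46 and MRPS11 faced each other across 34 bases, with log2 fold changes of -0.17 and -0.45. MRPL18 lay 63 bases from TCP1, a subunit of the cytosolic chaperonin, which was at -0.28. None of the neighbours within 100 bases was called by edgeR. Outside the family, the genes whose log2 CPM followed the mean z-score of the 78 genes most closely were AFMID (r = 0.995), COX7A2 (0.992), FRS3 (0.992), PARD6A (0.991) and NDUFAF8 (0.990), each over the same 6 libraries, as a description of libraries that share depth and GC trend.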

How the data were processed

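RNA sequencing of 6 libraries was analysed, grouped and numbered per the labels. The authors deposited counts of reads per gene and FPKM per gene for 58735 genes. HISAT2 2.0.5 and hg19 are named per the submitters' processing notes. However, identifiers, symbols and coordinates of all 58735 genes matched GENCODE 29, an annotation of GRCh38, and positions are printed in that build. No source used here gives the counting program or its strand setting. The deposited FPKM equalled counts over the length of all annotated exons and a depth of 0.854 to 1.10 times the total count, so genes with many extra exons are understated.

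Counts were tested with edgeR 4.0.16 (R 4.3.3; TMM scaling, filterByExpr with a minimum count of 10 and total of 15, robust quasi-likelihood fit, Benjamini-Hochberg over 14520 genes, threshold 0.05). CPM are TMM-scaled. Alternatives used DESeq2 1.42.0, limma 3.58.1 on log2(FPKM + 1) or (FPKM + 0.1), other filters, a replicate block, left-out libraries and a loess correction for GC content (mean over a gene's GENCODE 29 transcripts). The edgeR step was tested on simulated data. Library totals were 17967283 to 18887497 counts, and single genes of the family had 19 to 5335 counts per library.

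The members and lists were chosen with earlier results of these data known. Genes named by rule were the 8 highest and 8 lowest fold changes, the 4 highest and 4 lowest FPKM, the S18 relatives, stalk, anchor and hydrolase genes, MRPS30, MRPS36 and the 41 genes that share exons with another gene; of these 41, those with over 50% of coding bases shared are described. MRPL1 and MRPL16 were added after their values were seen, because an alternative called them, and the 50% bound was also chosen after the values were seen. In each pathway list the 2 genes with the smallest p were named. A gene of the marker lists is not reported here.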

Additional observations from a re-analysis of the deposited data

How the results depend on the processing

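Of 17 alternatives, those that left the count of called genes of the family at 0 were DESeq2 size factors, DESeq2's Wald test, a filter of 1 CPM in 3 libraries, limma on FPKM in its 3 forms, and each left-out library other than library 2 with DNAJC12. Leaving out each library in turn gave 0 higher and 0 to 6 lower in the family, and 0 to 10 higher and 0 to 12 lower among the 79 pathway genes, the upper ends all without library 2 with DNAJC12. Each of the next settings is given with its calls in the family, among the pathway genes and over all tested genes, as higher and lower. DESeq2's Wald test gave 0 and 0, 1 and 0, and 1.99% and 1.9%. No filter gave 0 and 1, 1 and 0, and 1.34% and 1.18%. The replicate block gave 1 and 2, 5 and 3, and 6.96% and 6.38%. Leaving out both libraries numbered 2 gave 1 and 4, 6 and 8, and 10.3% and 8.41%. The GC correction gave 1 and 4, 5 and 9, and 9.39% and 8.44%. The GC correction with the replicate block gave 1 and 8, 6 and 10, and 11.2% and 10%, beside 10.3% of the 78 genes called lower. Leaving out library 2 with DNAJC12 gave 0 and 6, 10 and 12, and 12.1% and 10.4%. The median of the family stayed between -0.18 and -0.03 in all 17. The labels do not say that the numbers pair libraries, so the main fit had no block. Same-numbered libraries deviated together with r of 0.45, 0.58 and 0.03 for numbers 1, 2 and 3. For numbers 1 and 2 this was the highest r of each library with any library of the other group. Library 3 with DNAJC12 correlated best with library 1 of the empty vector (0.22). Whether the numbers mark pairs was not tested. In all, 40 of the 78 genes changed sign in some alternative, of which 30 are named genes and 10 are not listed here. For the named genes and pathway genes, the values of changed sign were these log2 fold changes. With the GC correction they were MRPL10 0.0436, MRPL20 0.0190, MRPL23 0.00388, MRPL30 -0.0585, MRPL41 -0.177, MRPS18B 0.0212, PTCD3 -0.0744. With the GC correction and the replicate block they were MRPL10 0.0375, MRPL12 0.0400, MRPL20 0.0139, MRPL30 -0.0742, MRPL41 -0.177, MRPS18B 0.0129, MRPS6 -0.0331, PTCD3 -0.0687. Without a filter they were MRPL11 -0.00940, MRPL14 -0.0217, MRPL2 -0.00173, MRPL41 -0.000597. With the replicate block they were MRPL11 -0.000832, MRPL14 -0.0186, MRPL2 -0.00624, MRPL37 -0.0130, MRPL41 -0.00252, MRPS2 -0.00648. Without both libraries numbered 2 they were MRPL11 -0.0914, MRPL14 -0.150, MRPL2 -0.145, MRPL32 0.120, MRPL37 -0.249, MRPL41 -0.146, MRPL49 -0.0885, MRPL54 -0.0783, MRPS17 -0.106, MRPS18A -0.0878, MRPS2 -0.195, MRPS36 0.0491, MRPS6 -0.208, MRPS9 0.0882. With limma on log2(FPKM + 1) they were MRPL11 -0.00842, MRPL14 -0.0262, MRPL2 -0.0133, MRPL37 -0.0197, MRPL41 -0.0101, MRPS2 -0.0138. With limma on log2(FPKM + 0.1) they were MRPL11 -0.00895, MRPL12 0.00167, MRPL14 -0.0264, MRPL2 -0.0142, MRPL37 -0.0206, MRPL41 -0.0105, MRPS2 -0.0149. With limma on log2(FPKM + 1) and no filter they were MRPL11 -0.00842, MRPL14 -0.0262, MRPL2 -0.0133, MRPL37 -0.0197, MRPL41 -0.0101, MRPS2 -0.0138. When single libraries were left out, genes with a change of sign ranged over MRPL1 -0.607 to 0.0270, MRPL10 -0.307 to 0.163, MRPL11 -0.165 to 0.157, MRPL12 -0.540 to 0.120, MRPL13 -0.388 to 0.0902, MRPL14 -0.252 to 0.156, MRPL2 -0.252 to 0.189, MRPL20 -0.196 to 0.0992, MRPL23 -0.301 to 0.0328, MRPL28 -0.510 to 0.0244, MRPL30 -0.0541 to 0.239, MRPL32 -0.194 to 0.183, MRPL33 -0.188 to 0.150, MRPL37 -0.273 to 0.201, MRPL4 -0.606 to 0.0292, MRPL41 -0.276 to 0.219, MRPL42 -0.369 to 0.185, MRPL43 -0.404 to 0.0435, MRPL46 -0.468 to 0.0205, MRPL47 -0.305 to 0.248, MRPL49 -0.140 to 0.374, MRPL54 -0.110 to 0.375, MRPS12 -0.444 to 0.104, MRPS17 -0.0974 to 0.210, MRPS18A -0.147 to 0.327, MRPS18B -0.176 to 0.0912, MRPS2 -0.247 to 0.226, MRPS36 -0.142 to 0.156, MRPS6 -0.140 to 0.182, MRPS9 -0.286 to 0.146, PTCD3 -0.221 to 0.418. The cause of these changes was not tested. Depth limits the lowest genes, down to 19 counts in a library.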
